A study of Mus musculus with 12 samples.

Results

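Transcripts of 10 genes of the Bcl2 family were followed in CD8+ T cells exposed to an inhibitor of the histone methyltransferase EZH2 (EZH2i) or to its solvent DMSO. The genes were taken by symbol and are Bcl2, Bcl2l1, Mcl1, Bax, Bak1, Bcl2l11, Bik, Bbc3, Pmaip1 and Bad, 10 of the 24421 symbols in each count table. All 10 passed the filter on low counts, as did 11727 symbols in all. The cells were CD8+ T cells from spleens of C57BL/6 mice, an inbred laboratory strain, and no genetic change is given in the labels. EZH2i was represented by 6 libraries and DMSO by 6, numbered 1 to 6 in each group. The sources used here do not give the name, dose, duration or route of the inhibitor, the ages of the mice or any stimulation of the cells. Whether libraries of a group are from different mice or cultures is not stated either. The p-values then measure only how these libraries vary, which may be technical.

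The Bcl2 family decides whether the outer membrane of mitochondria stays intact. BAX and BAK1 form pores in that membrane, BCL2, BCL-XL (from Bcl2l1) and MCL1 hold them in check, and the BH3-only proteins (BIM from Bcl2l11, PUMA from Bbc3, NOXA from Pmaip1, BIK and BAD) neutralise the survival proteins, while BIM and PUMA can also activate BAX and BAK1. In T cells, BIM is a main driver of the death of activated cells when a response contracts, and BCL2 and MCL1 keep resting and memory cells alive. The genes are described in that order of roles: 5 BH3-only genes, 2 pore-forming genes and 3 survival genes.

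Library totals were 19610258 to 31206228 counts in EZH2i and 17215483 to 28092434 counts in DMSO. Library 6 of each group stood apart from the other 5 of its group on both leading principal components, which held 45.2% and 33.8% of the variance, and members are therefore also given without the libraries numbered 6. Of all genes tested, 2266 differed between the groups in edgeR's quasi-likelihood test (Benjamini-Hochberg adjusted p under 0.05, the rule for every call below), 1557 higher and 709 lower in EZH2i. With upper-quartile scaling the split was 1800 higher and 347 lower. With the library number added to the model (the replicate block) 5741 genes were called. Of 6 CD8 T cell markers, 3 (Cd8a, Cd3g and Lck) were lower in EZH2i, and the list summed to 2821 to 4010 CPM (counts scaled to library size) in EZH2i and 3746 to 4966 CPM in DMSO. CD4 and regulatory T cell markers summed to 208 to 574 CPM in EZH2i and 253 to 449 CPM in DMSO, mostly from Ctla4, with 1 of 3 tested markers higher (Zbtb7b, 22.2 CPM in EZH2i and 14.6 CPM in DMSO). Of the same list Foxp3 was at 7.82 CPM in EZH2i and 6.02 CPM in DMSO, and Cd4 itself at 0.0983 CPM in EZH2i and 0.0887 CPM in DMSO. NK cell markers summed to 262 to 469 CPM in EZH2i and 180 to 231 CPM in DMSO, with 2 of 5 tested markers higher (Klrb1c and Eomes), while the NK-defining receptor Ncr1 was at 0.0455 CPM in both groups. Monocyte, macrophage and dendritic cell markers summed to 42.3 to 55.4 CPM in EZH2i and 26.0 to 38.4 CPM in DMSO, with 2 of 4 tested markers higher (Itgam and Itgax) and Csf1r at 0.0144 CPM in EZH2i and 0.00876 CPM in DMSO. B cell markers summed to 15.6 to 24.0 CPM in EZH2i and 20.3 to 25.8 CPM in DMSO, mostly from Cd79b, with 0 of 2 tested markers called in edgeR's test (1 higher, Cd22, and 1 lower, Cd79b, both at an unadjusted p under 0.05 and by DESeq2), and Ms4a1 was under 0.1 CPM in both groups. Granulocyte and mast cell markers summed to 1.42 to 3.28 CPM in EZH2i and 0.774 to 1.59 CPM in DMSO, with the 1 tested marker, Cpa3, higher and Camp without a count. Stromal and endothelial markers summed to 61.4 to 184 CPM in EZH2i and 88.7 to 196 CPM in DMSO, mostly from Pecam1, with 1 of 3 tested markers higher (Pdgfrb, 3.09 CPM in EZH2i and 0.392 CPM in DMSO). Erythroid and platelet markers summed to at most 3.93 CPM in EZH2i and 3.03 CPM in DMSO, with Hba-a1, Hbb-bs, Hbb-bt and Alas2 without a count. With the replicate block (24.7% of all tested genes higher and 24.3% lower), 4 of 6 CD8 T cell markers were lower. Higher were 3 of 3 tested CD4 and regulatory T cell markers and 3 of 5 NK cell markers. Of the stromal and endothelial markers 2 were higher and 1 lower, and of the B cell markers 1 was higher and 1 lower. The part of these marker differences in the results below was not tested. In bulk RNA, a smaller number of cells of a type and less RNA per cell cannot be told apart.

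Of the 10 members, 2 rose with EZH2 inhibition and 0 fell, against 13.3% of all tested genes called higher and 6.05% called lower. Both were BH3-only genes, Bcl2l11 and Bik. At an unadjusted p under 0.05 (19.3% of all genes higher and 13.2% lower), and likewise by DESeq2 (14.8% and 7.75%), 3 members were higher and 0 lower, the added gene being the BH3-only gene Bbc3. Of the 7 pro-death members 2 rose, and of the 3 survival members 0 changed in edgeR's quasi-likelihood test, with 0 at an unadjusted p under 0.05 and 0 by DESeq2. The median log2 fold change was 0.18 over the 7 pro-death genes and 0.0020 over the 3 survival genes, beside -0.013 over all tested genes. Without the libraries numbered 6 these medians were 0.073 over the pro-death genes and 0.017 over the survival genes. The pro-death median of 0.18 is the value of Bax, which was -0.0064 without EZH2i library 6. With the replicate block, under which 24.7% of all genes were called higher and 24.3% lower, 4 members were higher (Bcl2l11, Bik, Bbc3 and Bcl2) and 1 was lower (Bak1). Without the libraries numbered 6, under which 24.1% of genes were called higher and 20% lower, 3 members were higher (Bcl2l11, Bik and Bbc3) and 0 lower. Both changes together gave 4 higher and 1 lower, against 26.3% and 23.3% of all genes. The CPM of the groups did not overlap for 2 of the 10 members, Bcl2l11 and Bik, against 7.5% of all tested genes that lay wholly higher in EZH2i and 2.74% wholly lower.

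**Figure D1:**
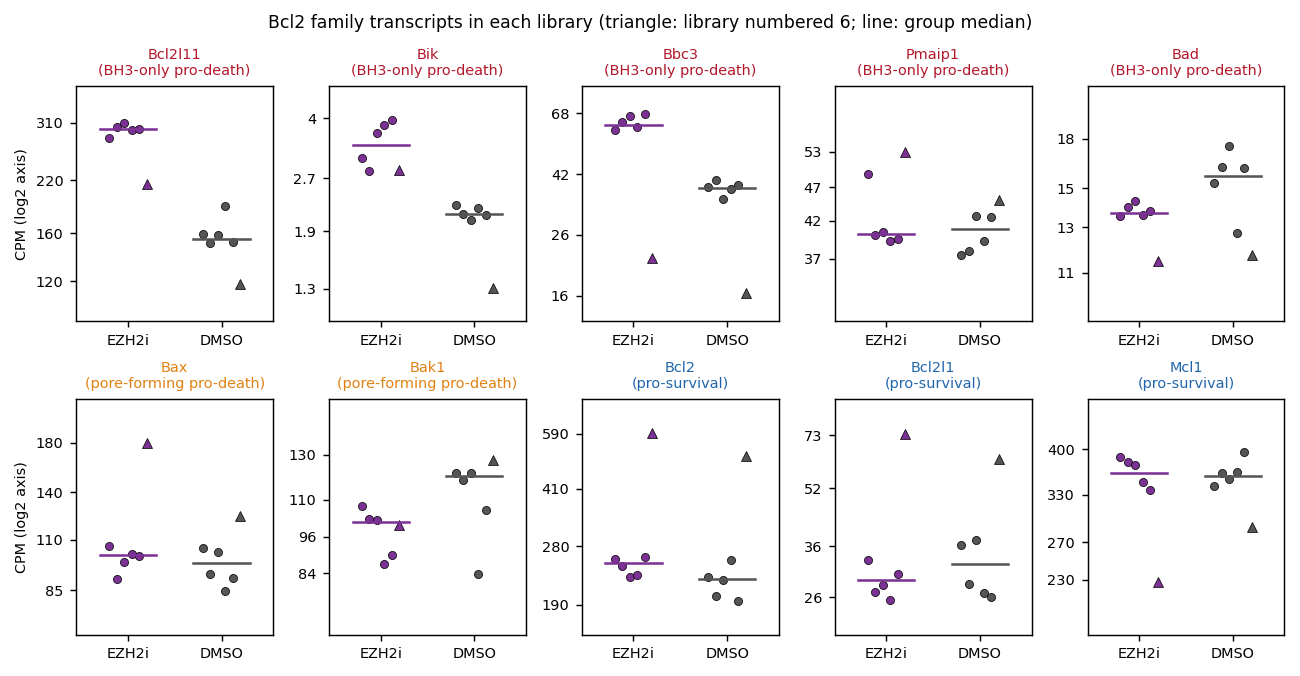
Level of each Bcl2 family gene in each library (y axis: CPM, log2 axis; 6 EZH2i libraries on the left and 6 DMSO libraries on the right of each panel; lines mark group medians, triangles the library numbered 6). Bcl2l11 and Bik lie wholly higher in EZH2i, Bbc3 does so among libraries 1 to 5, and Bcl2, Bcl2l1, Bax and Bbc3 have their most distant value in library 6.

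Bcl2l11, the gene of BIM, lies on chromosome 2 at 128126038 to 128162547 of GRCm38, on the plus strand. Its level in EZH2i was 215 CPM at the lowest, 298 CPM at the median and 310 CPM at the highest, against 118, 155 and 188 CPM in DMSO. Every EZH2i library lay above every DMSO library, and in each group library 6 was the lowest. The group means were 285 ± 35.0 CPM in EZH2i and 154 ± 22.6 CPM in DMSO (SD, n = 6 each), a log2 fold change of 0.88 (SE 0.11, 95% interval 0.64 to 1.12; adjusted p = 0.000122). Between libraries of the same number the log2 ratio was lowest in number 4, at 0.65, highest in number 2, at 1.0, and 0.87 in number 6, so library 6 shifted both groups together and left their distance within the range of the others. Without the libraries numbered 6 the means were 298 ± 9.62 CPM in EZH2i and 162 ± 15.4 CPM in DMSO (SD, n = 5 each), and the log2 fold change was 0.89 (adjusted p = 5.90e-09).

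Bcl2l11 was an abundant transcript in both groups, and a rise of that size was rare at its level. Of the 2270 tested genes with a mean of at least 100 CPM over all libraries, 76 (3.35%) were called higher and 279 lower, and Bcl2l11 had the fifth largest log2 fold change, behind Serpinb6b, Ddit4, Eomes and Itgb3. It kept rank 5 among them without the libraries numbered 6. Of the 1440 tested genes with a DMSO mean at least that of Bcl2l11, 1 had a log2 fold change as large, which was Bcl2l11 itself. That cut leaves out genes that rose from a lower DMSO level, such as Eomes at 70.5 CPM in DMSO. Part of this result is thus built into the cut. These ranks describe one gene chosen with its rise known.

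The sequence around the start of Bcl2l11 is shown because it had the smallest p of the 10 members, with those of Bbc3 and Mcl1 for comparison. RefSeq windows of 300 bases (250 before to 50 after a start, GRCm38.p6) were found for 8 of the 10 symbols used here, and not for Bik or Pmaip1. The windows below are on the plus strand, with CG pairs, the target of DNA methylation and a hallmark of CpG islands, in capitals.
Bcl2l11, upstream start, chr2:128125788-128126087: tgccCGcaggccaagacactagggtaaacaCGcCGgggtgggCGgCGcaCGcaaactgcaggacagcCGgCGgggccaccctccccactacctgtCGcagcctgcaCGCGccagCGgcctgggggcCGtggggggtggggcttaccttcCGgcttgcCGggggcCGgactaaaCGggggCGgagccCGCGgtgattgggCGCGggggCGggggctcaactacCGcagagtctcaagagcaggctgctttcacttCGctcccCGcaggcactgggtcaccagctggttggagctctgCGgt
Bcl2l11, downstream start, chr2:128127325-128127624: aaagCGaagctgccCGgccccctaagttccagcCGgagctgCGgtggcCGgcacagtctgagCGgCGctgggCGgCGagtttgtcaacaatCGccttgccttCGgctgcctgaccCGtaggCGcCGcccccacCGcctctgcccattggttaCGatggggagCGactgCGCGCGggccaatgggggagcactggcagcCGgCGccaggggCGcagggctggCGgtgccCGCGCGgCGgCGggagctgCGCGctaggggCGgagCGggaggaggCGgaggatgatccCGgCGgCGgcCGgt
Bbc3, second of its starts, chr7:16310011-16310310: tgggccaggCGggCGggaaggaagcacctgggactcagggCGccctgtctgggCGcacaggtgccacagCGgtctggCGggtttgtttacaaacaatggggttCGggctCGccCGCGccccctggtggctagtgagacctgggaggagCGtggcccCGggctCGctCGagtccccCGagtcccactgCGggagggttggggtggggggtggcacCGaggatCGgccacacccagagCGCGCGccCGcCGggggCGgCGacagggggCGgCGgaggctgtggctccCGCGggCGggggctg
Mcl1, chr3:95658471-95658770: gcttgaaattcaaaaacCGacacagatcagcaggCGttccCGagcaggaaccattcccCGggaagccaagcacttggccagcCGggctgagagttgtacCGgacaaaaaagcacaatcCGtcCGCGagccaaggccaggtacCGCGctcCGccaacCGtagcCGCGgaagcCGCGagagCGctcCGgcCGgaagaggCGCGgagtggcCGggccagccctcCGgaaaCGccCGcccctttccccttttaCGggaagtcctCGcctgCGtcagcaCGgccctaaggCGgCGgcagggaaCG
The Bcl2l11 windows held 27 and 38 CG pairs, the Bbc3 window 30 and the Mcl1 window 33, against a median of 21 over the windows of tested genes and 7 over all windows. At least as many CG pairs as in the upstream Bcl2l11 window were found in 31.0% of the windows of tested genes, as in the downstream one in 9.61%, as in the Bbc3 window in 23.3% and as in the Mcl1 window in 17.0%. Mcl1, which did not pass the test, lay between both Bcl2l11 windows in its number of CG pairs. The other windows of Bbc3 held 34 and 39 CG pairs, and the one printed was chosen because it holds a motif described next. The window of Bcl2 held 44 CG pairs, that of Bax 19 and that of Bak1 11, the windows of Bad held 27 and 21, and those of Bcl2l1 held 1, 14 and 22.

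Forkhead factors such as FOXO3 are known regulators of Bcl2l11 and Bbc3, and the windows were searched for 2 forkhead core motifs, GTAAACA, which reads TGTTTAC on the opposite strand, and GTCAACA, which reads TGTTGAC there. These occur in 3.65% and 2.50% of all start windows. Bik, the other called member, and Pmaip1 had no window to search. A match was found in 3 of the windows of the 8 symbols, all of Bcl2l11 or Bbc3, and is shown in capitals within 30 bases.
Bcl2l11, upstream window, first motif base 227 bases before the start: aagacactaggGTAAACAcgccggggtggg
Bcl2l11, downstream window, first motif base 168 bases before the start: gcggcgagtttGTCAACAatcgccttgcct
Bbc3, second window, first motif base 167 bases before the start: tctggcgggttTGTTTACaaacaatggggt
A match describes letters and is not a measured binding site. The motifs were searched with Bcl2l11 and Bbc3 already known as forkhead targets, so the matches do not set the genes that rose apart. The share of motifs among windows of tested genes alone is not given. The forkhead transcripts Foxo1, Foxo3 and Foxo4 of the list of upstream regulators, singled out after their values were seen, did not pass the test. Foxo1 averaged 216 ± 52.6 CPM in EZH2i and 208 ± 36.0 CPM in DMSO (log2 fold change 0.052, adjusted p = 0.877), and Foxo4 21.1 ± 3.89 CPM in EZH2i and 22.8 ± 4.14 CPM in DMSO (-0.11, adjusted p = 0.665; SD, n = 6 each). Foxo3 averaged 37.0 ± 5.83 CPM in EZH2i and 32.6 ± 3.85 CPM in DMSO (SD, n = 6 each), which is 0.18 on the log2 scale. Its adjusted p was 0.317, and it passed with the replicate block (0.0381) and without the libraries numbered 6 (0.0424), while Foxo1 and Foxo4 passed in neither. Other regulators of that list also passed only in such fits. With the block, Ddit3 was higher (0.40, adjusted p = 0.000432). Lower with the block were Trp53, the gene of p53 (-0.25, adjusted p = 0.00212), and Tfdp1 (-0.34, adjusted p = 0.000168). Of the 13 tested regulators, 3 were higher and 2 lower with the block.

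Bik, a BH3-only gene whose product acts at the endoplasmic reticulum and mitochondria, lies on chromosome 15 at 83526862 to 83544634. It was the scarcest member, with 61 to 104 counts per EZH2i library and 22 to 60 per DMSO library. Its level in EZH2i was 2.84 CPM at the lowest, 3.36 CPM at the median and 3.97 CPM at the highest, against 1.31, 2.13 and 2.26 CPM in DMSO. The groups did not overlap, and the gap was narrowest between 2.84 CPM in EZH2i library 2 and 2.26 CPM in DMSO library 1. The means were 3.37 ± 0.508 CPM in EZH2i and 2.02 ± 0.354 CPM in DMSO (SD, n = 6 each), a log2 fold change of 0.73 (SE 0.16, 95% interval 0.39 to 1.08; adjusted p = 0.00585). Between libraries of the same number the log2 ratio was lowest in number 2, at 0.41, and highest in number 6, at 1.12. DMSO library 6 was the lowest of all 12 libraries, and without the libraries numbered 6 the log2 fold change was 0.69 (adjusted p = 0.00106).

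Bbc3, the gene of PUMA, a BH3-only protein best known as a p53 target, lies on chromosome 7 at 16308393 to 16318205. Its level in EZH2i was 21.6 CPM at the lowest, 62.1 CPM at the median and 67.7 CPM at the highest, against 16.3, 37.5 and 40.0 CPM in DMSO. Libraries 1 to 5 ran from 59.7 to 67.7 CPM in EZH2i and from 34.5 to 40.0 CPM in DMSO, and library 6 of each group lay far under them, so that the groups overlapped only through EZH2i library 6. The means were 56.7 ± 17.5 CPM in EZH2i and 34.1 ± 8.88 CPM in DMSO (SD, n = 6 each), a log2 fold change of 0.73 (SE 0.26, 95% interval 0.16 to 1.30) that did not pass the test (adjusted p = 0.0697). Its log2 fold change equalled that of Bik to 2 decimals, but its SE was 0.26 against 0.16 for Bik. All 6 EZH2i libraries lay above the DMSO library of the same number, with log2 ratios of 0.66 to 0.95 in numbers 1 to 5 and 0.41 in number 6. Bbc3 passed the test with the replicate block (0.71, adjusted p = 3.62e-07), without the libraries numbered 6 (0.77, adjusted p = 3.96e-08) and by DESeq2 (0.72, adjusted p = 0.0320).

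The remaining BH3-only genes did not pass the test. Pmaip1, the gene of NOXA, which binds MCL1, averaged 43.6 ± 5.92 CPM in EZH2i and 40.8 ± 3.06 CPM in DMSO (SD, n = 6 each), a log2 fold change of 0.094 (95% interval -0.11 to 0.29; adjusted p = 0.537). Its EZH2i libraries 1 and 6 were the highest of the 12, at 49.1 and 52.9 CPM, and the other 4 lay among the DMSO libraries. Bad, whose product is held inactive by AKT phosphorylation, averaged 13.5 ± 1.0 CPM in EZH2i and 14.9 ± 2.24 CPM in DMSO (SD, n = 6 each), a log2 fold change of -0.15 (95% interval -0.38 to 0.078; adjusted p = 0.363). Bad shares 524 exon bases, 20.5% of its own, with Gpr137 on the opposite strand (14.2 CPM in EZH2i and 9.37 CPM in DMSO), and the strand setting of the counting is not given, so its level is uncertain. The intervals of Pmaip1 and Bad both end under the lowest bound for Bcl2l11, but the difference between genes was not tested.

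**Figure D2:**
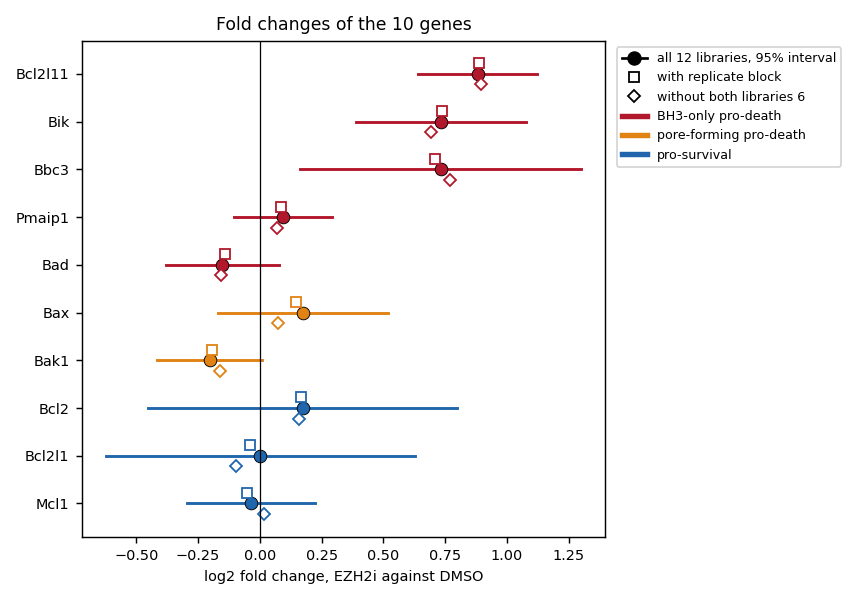
Log2 fold change (EZH2i over DMSO) of each Bcl2 family gene: circles with 95% intervals for all 12 libraries, squares with the replicate block and diamonds without the libraries numbered 6. Bcl2l11 stays between 0.88 and 0.89 in the 3 fits, and the intervals of Bcl2, Bcl2l1 and Bbc3 are the widest of the 10.

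The pore-forming genes Bax and Bak1 did not pass the test, with 0 of 2 called in edgeR's quasi-likelihood test, 0 at an unadjusted p under 0.05 and 0 by DESeq2. Bax was at 90.0 CPM at the lowest, 102 CPM at the median and 180 CPM at the highest in EZH2i, against 84.8, 97.9 and 124 CPM in DMSO. The highest value of each group was library 6, and the other 5 libraries of the groups overlapped. Its means were 113 ± 33.1 CPM in EZH2i and 100.1 ± 14.2 CPM in DMSO (SD, n = 6 each), a log2 fold change of 0.18 (95% interval -0.17 to 0.52; adjusted p = 0.497). Bax shares 192 exon bases, 12.2% of its own, with the gene model Gm45808 on the same strand.

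Bak1 was at 87.0 CPM at the lowest, 101 CPM at the median and 108 CPM at the highest in EZH2i, against 83.6, 120 and 128 CPM in DMSO. Apart from DMSO library 4, the lowest of all, and DMSO library 5, every DMSO library lay above every EZH2i library. Its means were 98.3 ± 8.07 CPM in EZH2i and 113 ± 16.2 CPM in DMSO (SD, n = 6 each), a log2 fold change of -0.20 (95% interval -0.42 to 0.010; adjusted p = 0.175). Bak1 was lower in EZH2i in 5 of 6 same-numbered libraries. It passed the test with the replicate block (-0.19, adjusted p = 0.00867) and without DMSO library 4 (-0.28, adjusted p = 0.0181). Bak1 shares 614 exon bases with Ggnbp1 on the opposite strand, which was counted at 0.462 CPM in EZH2i and 0.448 CPM in DMSO.

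**Figure D3:**
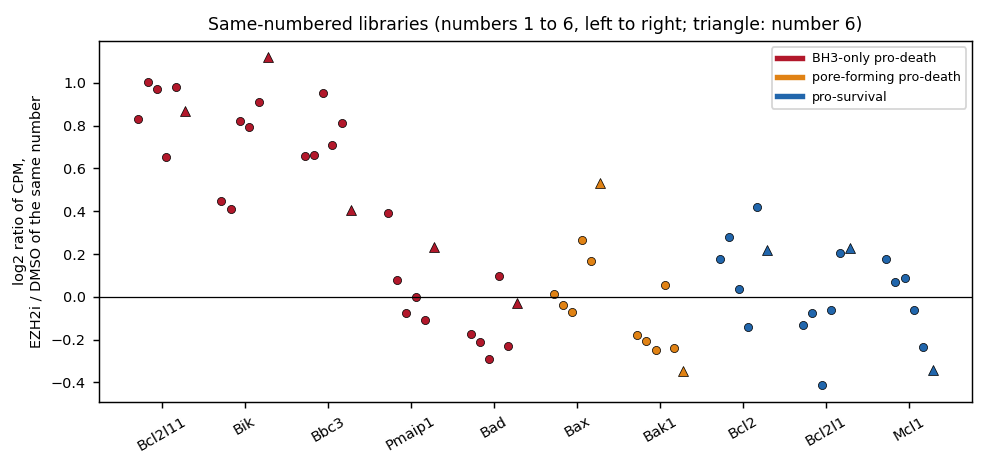
Log2 ratio of EZH2i over DMSO CPM between libraries of the same number for each Bcl2 family gene (y axis: log2 ratio, 0 is no difference; triangles mark number 6). All 6 ratios lie above 0 for Bcl2l11, Bik and Bbc3, and the ratios of the other 7 genes fall on both sides of 0.

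Of the survival genes, Bcl2 was at 229 CPM at the lowest, 251 CPM at the median and 594 CPM at the highest in EZH2i, against 195, 225 and 510 CPM in DMSO. Library 6 was the highest in each group, at 2.43 times the mean of the other 5 in EZH2i and 2.31 times in DMSO, and the other libraries of the groups overlapped. The means were 303 ± 143 CPM in EZH2i and 269 ± 120 CPM in DMSO (SD, n = 6 each), a log2 fold change of 0.17 (SE 0.29, 95% interval -0.45 to 0.80; adjusted p = 0.728). With the replicate block the value was the same, 0.17, at an adjusted p of 0.0411. Without the libraries numbered 6 it was 0.16 (adjusted p = 0.0683). EZH2i was higher in 5 of 6 same-numbered libraries and lower in number 4. Leaving out EZH2i library 6 alone turned the log2 fold change to -0.14, and leaving out DMSO library 6 alone gave 0.46. Bcl2 shares 558 exon bases, 6.09% of its own, with the antisense gene D630008O14Rik, and with the strand setting not given its level is uncertain to that extent.

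Bcl2l1, the gene of BCL-XL, was at 25.6 CPM at the lowest, 29.1 CPM at the median and 73.5 CPM at the highest in EZH2i, against 26.1, 32.3 and 62.6 CPM in DMSO. Here too library 6 was the highest in each group, and the rest overlapped. The means were 36.2 ± 18.4 CPM in EZH2i and 36.2 ± 13.8 CPM in DMSO (SD, n = 6 each), a log2 fold change of 0.0020 (95% interval -0.62 to 0.63; adjusted p = 0.997). Without the libraries numbered 6 the log2 fold change was -0.097 (adjusted p = 0.473).

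Mcl1, a short-lived survival protein, had the highest level of the 10 genes per length, 100.2 ± 17.4 CPM per kb of exon in EZH2i and 103 ± 10.4 CPM per kb in DMSO. It was at 228 CPM at the lowest, 362 CPM at the median and 388 CPM at the highest in EZH2i, against 288, 358 and 396 CPM in DMSO. Library 6 was the lowest in each group, the reverse of Bcl2 and Bcl2l1, and the groups overlapped with and without it. Its log2 fold change was -0.036 (SE 0.12, 95% interval -0.29 to 0.22; adjusted p = 0.873). That interval leaves room for a change of either sign but lies below the lower bound of 0.64 for Bcl2l11.

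The survival genes added up to nearly the same level per length in both groups while their makeup differed between library 6 and the rest. Bcl2, Bcl2l1 and Mcl1 summed to 141 ± 6.82 CPM per kb in EZH2i and 140 ± 7.68 CPM per kb in DMSO (SD, n = 6 each). Mcl1 made up 45.2% of that sum in EZH2i library 6 and 54.9% in DMSO library 6, the lowest share of each group, against at most 77.9% in EZH2i and 81.1% in DMSO. Bcl2 made up 44.0% and 36.2% of it in the same 2 libraries, the highest share of each group. The 5 BH3-only genes summed to 85.5 ± 11.3 CPM per kb in EZH2i and 57.3 ± 6.47 CPM per kb in DMSO. Bcl2l11 made up 39.8% to 42.8% of the BH3-only sum in EZH2i and 31.4% to 38.0% in DMSO, with no overlap, and Bad 5.88% to 7.16% in EZH2i and 8.05% to 11.5% in DMSO. The shares of Bik, Bbc3 and Pmaip1 overlapped between the groups. Shares of a sum are tied to each other, so a rise of Bcl2l11 lowers the share of an unchanged gene. These shares therefore restate the rise of Bcl2l11 and add no separate result for Bad.

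Per length, the order of the mean levels in EZH2i was Mcl1 (100.2 CPM per kb), Bax (71.7), Bak1 (40.8), Bcl2l11 (35.5), Bcl2 (33.1), Bbc3 (26.7), Pmaip1 (15.9), Bcl2l1 (7.89), Bad (5.26) and Bik (2.12). In DMSO, Bcl2l11 (19.2 CPM per kb) stood between Bcl2 (29.3) and Bbc3 (16.0), while the other genes kept the same order. The SD of Bcl2, 15.7 CPM per kb in EZH2i, was larger than its distance from Bcl2l11, and much of it came from library 6. Within EZH2i libraries 1 to 5, Bcl2l11 over Bcl2 was 1.26 to 1.54, and in library 6 it was 0.414. In DMSO the SDs of Bbc3 and Pmaip1 were 4.18 and 1.12 CPM per kb. There too library 6 stood apart, with Bbc3 at 16.3 CPM against 34.5 to 40.0 CPM in DMSO libraries 1 to 5. The order of neighbouring genes was not tested.

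**Figure D4:**
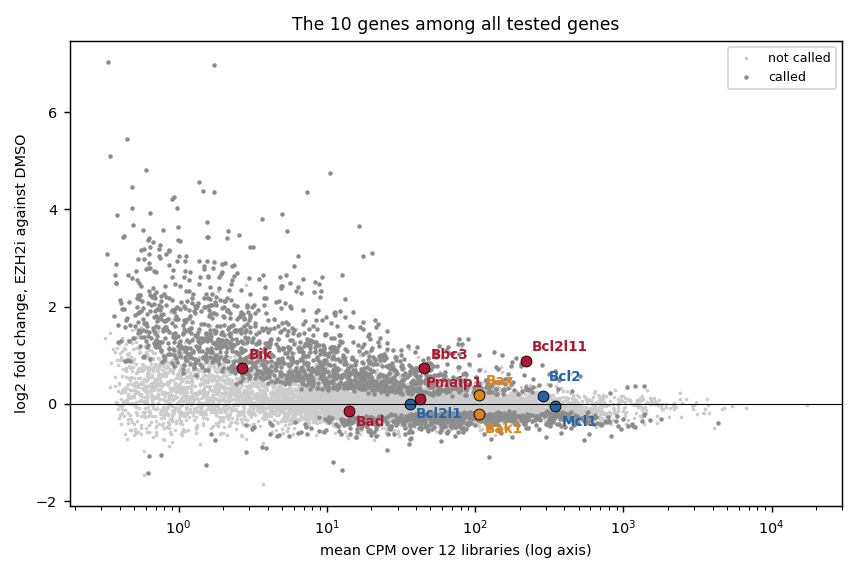
Log2 fold change (EZH2i over DMSO, y axis) against mean level (CPM, log axis) for all tested genes in grey (darker where called) and the 10 Bcl2 family genes coloured by role. Bcl2l11 lies near the upper edge of the cloud at its level, and Mcl1 and Bcl2, at still higher levels, lie near 0.

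The balance of death to survival transcripts was followed as a ratio of levels per length within each library, with no test because the genes were chosen for their roles with results known. Bcl2l11 over Mcl1 was 0.311 to 0.403 in EZH2i (median 0.357) and 0.163 to 0.221 in DMSO (median 0.184). The groups did not overlap, and library 6 had the highest EZH2i ratio, 0.403, and a ratio of 0.174 inside the DMSO range. Bcl2l11 over Bcl2 had a median of 1.36 in EZH2i and 0.825 in DMSO. In libraries 1 to 5 it was above 1 in every EZH2i library and below 1 in every DMSO library, and in library 6 it was 0.414 in EZH2i and 0.264 in DMSO. Bcl2l11 over Bcl2l1 had a median of 5.99 in EZH2i and 2.77 in DMSO, with library 6 the lowest of each group at 1.68 in EZH2i and 1.07 in DMSO. The difference between the groups' mean log2 ratios was 0.94 for Mcl1, 0.72 for Bcl2 and 0.93 for Bcl2l1 as the denominator.

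Over the listed members only, the summed BH3-only level divided by the summed survival level had a median of 0.640 in EZH2i and 0.440 in DMSO. In libraries 1 to 5 it ran from 0.596 to 0.686 in EZH2i and from 0.421 to 0.442 in DMSO. In library 6 it was 0.425 in EZH2i and 0.288 in DMSO, which places EZH2i library 6 among the DMSO libraries although it lay above its own number by 0.56 on the log2 scale. Bax over Bcl2 gave no such separation, with medians of 2.33 in EZH2i and 2.68 in DMSO. The sums do not cover the whole family. Among others, they leave out the BH3-only genes Bmf and Bid and the survival genes Bcl2l2 and Bcl2a1b, all described below. The pore-forming genes are left out too. Bax averaged 71.7 CPM per kb in EZH2i and 63.5 in DMSO, and Bak1 40.8 in EZH2i and 47.0 in DMSO. How the ratio would change with these genes added was not tested.

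**Figure D5:**
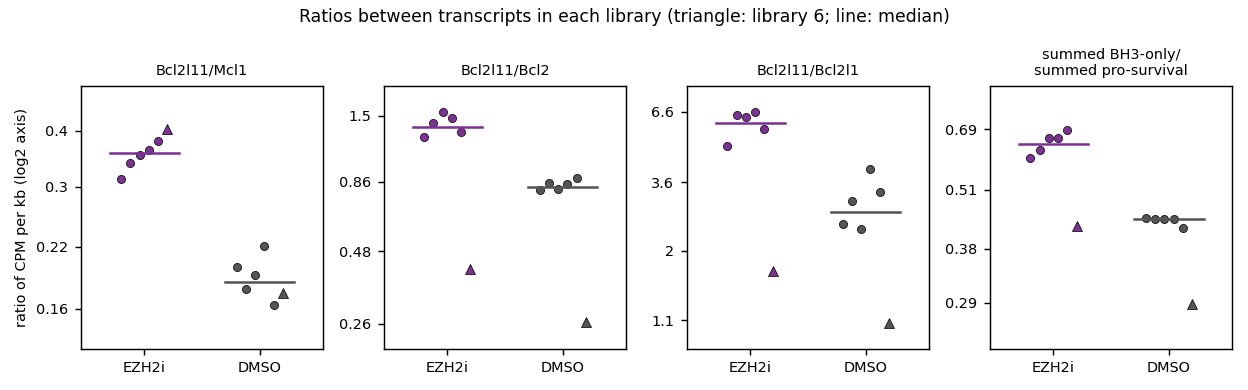
Ratios of levels per kb of exon within each library (y axis, log2 axis; EZH2i left and DMSO right; triangles mark library 6). Bcl2l11 over Mcl1 separates all 6 EZH2i libraries from all 6 DMSO libraries, and for Bcl2l11 over Bcl2 and the summed BH3-only over survival ratio library 6 of each group lies below the rest.

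A further 16 genes of the family were read from the same tables, of which 9 could be tested. In edgeR's quasi-likelihood test 2 were higher in EZH2i and 0 lower, against 13.3% and 6.05% of all tested genes. At an unadjusted p under 0.05 (19.3% of all genes higher and 13.2% lower), 3 were higher and 1 lower, the survival gene Bcl2a1b. By DESeq2 (14.8% and 7.75%), 3 were higher and 0 lower. Bcl2l2, the gene of the survival protein BCL-W, rose to 14.2 ± 0.598 CPM in EZH2i, against 10.4 ± 1.29 CPM in DMSO (SD, n = 6 each), with no overlap (log2 fold change 0.44, adjusted p = 0.00453). Bcl2l14 rose too, at very low counts, with 108 counts summed over EZH2i and 21 over DMSO (log2 fold change 2.08, adjusted p = 0.00152). Bmf, a BH3-only gene singled out after its values were seen, had the pattern of Bbc3. It averaged 26.0 ± 10.4 CPM in EZH2i and 12.4 ± 5.11 CPM in DMSO (SD, n = 6 each), with 5.29 CPM in EZH2i library 6 and 2.80 CPM in DMSO library 6 as the lowest of each group. Its log2 fold change of 1.06 did not pass the test (adjusted p = 0.0977), and it did with the replicate block (adjusted p = 4.46e-08) and without the libraries numbered 6 (1.08, adjusted p = 1.88e-07). Bid, another BH3-only gene, passed in none of these fits, at 21.5 ± 10.5 CPM in EZH2i and 21.7 ± 7.44 CPM in DMSO (log2 fold change -0.014, adjusted p = 0.980). Bcl2a1b was at 3.89 ± 0.575 CPM in EZH2i and 4.89 ± 0.925 CPM in DMSO (-0.33, adjusted p = 0.151). Without the libraries numbered 6, Bcl2a1b passed as lower (-0.46, adjusted p = 0.00867).

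Downstream of the mitochondria, 14 genes of the apoptosome, caspases and released proteins were tested, and 2 fell while 0 rose. At an unadjusted p under 0.05, 1 was higher and 3 lower, and by DESeq2 0 were higher and 2 lower. Dffb, the nuclease that cuts DNA in dying cells, was at 17.8 ± 1.47 CPM in EZH2i and 21.6 ± 0.700 CPM in DMSO (SD, n = 6 each; log2 fold change -0.27, adjusted p = 0.0171), and Casp2, an initiator caspase, was lower too (-0.20, adjusted p = 0.0367). The list's median log2 fold change was -0.063. Under the block, 1 was higher and 5 lower. Over all tested genes, 13.3% were called higher and 6.05% lower, and with the block 24.7% and 24.3%. At an unadjusted p under 0.05 the shares were 19.3% and 13.2%, and by DESeq2 14.8% and 7.75%. These shares apply to this list and those that follow, and no list was tested against them. Of the 7 tested inhibitor of apoptosis genes 0 were called in edgeR's quasi-likelihood test, 0 at an unadjusted p under 0.05 and 0 by DESeq2, and 1 was higher and 2 lower with the block. The smallest p among them was that of Naip5, at 1.22 ± 0.392 CPM in EZH2i and 0.876 ± 0.238 CPM in DMSO (SD, n = 6 each; adjusted p = 0.234).

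Of 12 genes of the death receptor route, which meets the mitochondrial route through BID, 1 rose and 0 fell. At an unadjusted p under 0.05, 4 were higher and 1 lower, and by DESeq2 1 was higher and 1 lower. Fasl, the ligand that T cells use to kill through FAS, was at 18.3 ± 6.13 CPM in EZH2i and 8.42 ± 2.96 CPM in DMSO (SD, n = 6 each), with the lowest EZH2i library at 13.9 CPM and the highest DMSO library at 12.7 CPM. The log2 fold change of Fasl was 1.12, at an adjusted p of 0.00618. Under the block, 4 genes of this list were higher and 3 lower. The shares of all tested genes were 13.3% higher and 6.05% lower, and 24.7% and 24.3% with the block.

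Among 13 tested regulators of BH3-only transcription, 1 rose and 0 fell, with a list median of -0.045. At an unadjusted p under 0.05, 1 was higher and 1 lower, and by DESeq2 2 were higher and 0 lower. Jun, the AP-1 subunit that can raise Bcl2l11 transcription in neurons, was at 77.0 ± 7.28 CPM in EZH2i and 48.5 ± 12.6 CPM in DMSO (SD, n = 6 each; log2 fold change 0.67, adjusted p = 0.00478). The groups overlapped only through DMSO library 6, at 72.8 CPM. Under the block, 3 of these regulators were higher and 2 lower. The shares of all tested genes were 13.3% higher and 6.05% lower, and 24.7% and 24.3% with the block.

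Of 14 survival receptors and kinases, 2 fell and 0 rose. At an unadjusted p under 0.05, 2 were higher and 4 lower, and by DESeq2 0 were higher and 3 lower. Akt2, a kinase that phosphorylates BAD, was at 154 ± 3.97 CPM in EZH2i and 185 ± 6.25 CPM in DMSO (SD, n = 6 each; log2 fold change -0.26, adjusted p = 0.00196), with no overlap. Ywhaz, a 14-3-3 protein that binds phosphorylated BAD, was also lower (-0.27, adjusted p = 0.00795). Under the block, 4 of the list were higher and 7 lower. Of 14 genes whose products modify or degrade family proteins, 3 rose and 0 fell (4 higher and 0 lower at an unadjusted p under 0.05, and 3 and 0 by DESeq2). The 3 that rose were Btrc, a ubiquitin ligase subunit (log2 fold change 0.44, adjusted p = 0.0135), Ppp3ca, the catalytic subunit of calcineurin (0.36, adjusted p = 0.0131), and Mapk8, the kinase JNK1, which phosphorylates BIM and BCL2 (0.36, adjusted p = 0.00570). Under the block, 4 were higher and 3 lower. For both lists, the shares of all tested genes were 13.3% higher and 6.05% lower, and 24.7% and 24.3% with the block.

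Across the 12 libraries the genes whose log2 CPM most resembled that of Bcl2l11 were Igf1r, the receptor for insulin-like growth factor 1 (Pearson r = 0.993), Mlxip, a glucose-responsive transcription factor (0.989), and Jup, the junction protein plakoglobin (0.987). Those most like Bik were Vsig10 (0.973), Irs2, an adaptor of the insulin receptor (0.969), and Fam26f (0.967). After the group means were subtracted, the genes most like Bcl2l11 were Ppp1r16b (0.990), Prrc2b (0.989) and Arap1 (0.988), and those most like Bik were Lrwd1 (0.966), Tspo (0.957) and Tmem9 (0.955). These values are descriptions over 12 libraries that share the treatment contrast and the distance of library 6. None of the 6 genes found after subtracting the means was called between the groups, their adjusted p ranging from 0.0520 for Arap1 to 0.935 for Prrc2b.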

How the data were processed

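Polyadenylated RNA of 12 libraries was sequenced as single-end reads of 75 bases from stranded TruSeq libraries, per the labels' protocols. The authors deposited unnormalised counts of reads for each gene symbol, in 1 table per library. Per the submitters' processing notes, reads were handled with TopHat2 2.1.1, featureCounts, Trimmomatic 0.38, FastQC 0.11.7 and SAMtools 1.9, on GRCm38 (mm10). The sources used here do not give the annotation, the strand setting or the rule for multi-mapping reads.

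Counts were tested in R 4.3.3 with edgeR 4.0.16 (limma 3.58.1): filterByExpr, TMM scaling, and the two-sided quasi-likelihood test on the group alone, with Benjamini-Hochberg adjustment over all 11727 genes tested and calls at an adjusted p under 0.05. Fold changes are EZH2i over DMSO. The SE is the absolute log2 fold change divided by the square root of F, and 95% intervals use the test's degrees of freedom. CPM uses TMM-scaled totals. Levels per kb, positions and overlaps use GENCODE M21 exons, in which all 10 members were found by symbol. Alternatives were upper-quartile and DESeq2 scaling, DESeq2 1.42.0, no filter, the replicate block, and leaving out libraries. The members and gene lists were chosen with earlier results of these data known. Outside the 10 members, a rule named in each list the called genes with the largest changes (4 at most), or else that with the smallest p. It also named the 3 genes most like each called member by Pearson r of log2 CPM (prior count 2). Bmf, Bid, Bcl2a1b, Foxo1, Foxo3, Foxo4, Ddit3, Trp53 and Tfdp1 were named outside that rule, as were single marker genes with counts.

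Libraries of a group differed beyond sampling noise (lowest chi-square divided by its degrees of freedom 4.94), so none was treated as a duplicate. After subtracting group means, libraries 1 to 6 correlated over genes with their same-numbered partner at r = 0.213, 0.445, 0.286, 0.527, 0.317 and 0.847, all over 0.1, so the condition for pairing was met. For numbers 2, 4 and 6, but not for 1, 3 and 5, the same-numbered partner was also the best match. Main values come from the fit on the group alone. Blocked values are given beside them for members whose call changed, and mostly as counts for the gene and marker lists. The pairing comes from the data, not the labels, and is not settled for numbers 1 to 5, since without number 6 the lowest r was 0.0371.

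The same test was also tested on simulated data for EZH2i against DMSO, with 11654 genes. Calls were made for 23 of 67 genes simulated with a 1.5-fold change, 50 of 67 with 2-fold and 64 of 66 with 4-fold, beside 6 false calls. The simulated counts varied independently around the mean of each gene over both groups, with a group difference only in the genes simulated as changed. They held no shift of library 6 shared across genes. These numbers therefore describe such data and cannot give the rates of missed or false calls in the real libraries.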

Additional observations from a re-analysis of the deposited data

Results flagged for a closer look

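Within a group of 6 libraries, the highest or lowest value of a gene was marked where its gap to the nearest other library exceeded 0.625 of the group's whole range (Dixon's 95% limit). Chance marks about 1 in 20 groups. Of 20 groups (10 genes in each of EZH2i and DMSO), 11 were marked, and the library was number 6 in all 11. The 20 groups are not independent, because the genes share the same 12 libraries and vary together. After subtracting group means, for example, Bcl2 and Bbc3 correlated at r = -0.972. The 11 marks are therefore not 11 separate events.

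Some survival or pore-forming genes stood high in library 6: Bcl2 at 594 CPM in EZH2i and 510 CPM in DMSO, Bcl2l1 at 73.5 CPM in EZH2i and 62.6 CPM in DMSO, and Bax at 180 CPM in EZH2i. Mcl1 stood low there, at 228 CPM in EZH2i. Among BH3-only genes, library 6 stood low for Bbc3 at 21.6 CPM in EZH2i and 16.3 CPM in DMSO, for Bcl2l11 at 215 CPM in EZH2i, for Bik at 1.31 CPM in DMSO and for Bad at 11.5 CPM in EZH2i. What sets library 6 apart is not given in the labels and was not tested.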

How the results depend on the processing

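Bcl2l11 and Bik stayed higher and called under every alternative run, Bcl2l11 with a log2 fold change of 0.82 to 0.95 and Bik with one of 0.64 to 0.78 when libraries were left out. With the replicate block, 5741 genes were called, 4 members higher and 1 lower, 1 survival member (Bcl2) higher, and 4 other family genes changed; Bcl2l1 was at -0.038. The block without the libraries numbered 6, added after seeing the data, gave 5827 genes, 4 members higher and 1 lower, 1 survival member higher, 6 other family genes, Bcl2l1 at -0.088 and Mcl1 at 0.016. The block changed the calls of Bbc3, Bcl2 and Bak1 and of no other member.

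Leaving out single libraries, or both numbered 6, gave 1725 to 5174 genes called (4018 without EZH2i library 6 and 5174 without both), 2 to 3 members and 2 to 3 pro-death members higher, 0 to 1 members lower (Bak1, without DMSO library 4), 0 survival members higher, and 2 to 6 other family genes (4 without DMSO library 6 and 6 without both). Bbc3 was called without EZH2i library 6 or without both. The log2 fold change then ranged from -0.14 to 0.46 for Bcl2, -0.33 to 0.23 for Bcl2l1, -0.086 to 0.058 for Mcl1 and -0.0064 to 0.25 for Bax, none of them called. Near 0, Mcl1 was at 0.026 with upper-quartile scaling, and Bcl2l1 was at -0.0088 with DESeq2 size factors, -0.016 by DESeq2 and -0.0033 without the filter. The cause of these shifts was not tested. Bik, at 22 to 104 counts per library, is the member whose precision depth limits most.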
